A study of Mus musculus with 8 samples.

Results

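The miR-106a to miR-363 cluster is an X-linked paralog of the miR-17 to miR-92a cluster. Its hairpins that have no second copy elsewhere are Mir106a, Mir18b, Mir20b and Mir363. Members were all rows of the deposited table named mmu-miR-106a, mmu-miR-18b, mmu-miR-20b or mmu-miR-363, with or without an arm suffix, which gave 8 mature arms of the 1099 miRNAs listed. Both arms of every hairpin were present, and all 8 passed the filter on low values used for testing.

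Small RNA was sequenced from mouse embryonic stem cells of the KH2 line, which is built to carry a doxycycline-inducible transgene at a fixed locus. All libraries have the genotype KH2-DGCR8. Total RNA was taken at days 0, 1, 2 and 4 of embryoid body (EB) differentiation, in which aggregated stem cells leave pluripotency, with doxycycline (Dox) and without it. The study asked how an excess of DGCR8 affects miRNA biogenesis. All 8 libraries carry the transgene, so the libraries without Dox are uninduced cells of the same line and not cells without the transgene, and no libraries of Dox-treated cells lacking the transgene were analysed here. Each of the 8 conditions had 1 library, so values of single conditions have no replicate. When Dox was added, also relative to day 0, was not given in the sources used here. Small RNA libraries hold no reads of the Dgcr8 messenger RNA, so induction could not be checked.

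Primary transcripts of such clusters are cut into hairpins by the Microprocessor, in which DROSHA does the cutting and DGCR8 binds the transcript, and DICER then releases both arms. Usually one arm, the guide, is kept in Argonaute, and its seed, bases 2 to 8, selects target messenger RNAs. The miR-17 family of clusters is known for promoting proliferation and survival, with targets that include cell cycle inhibitors and the pro-apoptotic gene Bim, and it is high in embryonic stem cells and early embryos. The miR-17 to miR-92a cluster is required for normal mouse development, whereas mice without the miR-106a to miR-363 cluster are viable.

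The guide arms are shown beside their paralogs because the seed is shared and the remaining bases are the only means of telling the copies apart. Capitals mark the seed, and sequences are RefSeq's on GRCm38.p6, to which 7 of the 8 arms matched. The cluster's own arms lie on the minus strand of the X chromosome, at chrX:52742541-52742563 for miR-106a-5p, chrX:52742159-52742181 for miR-20b-5p, chrX:52742381-52742403 for miR-18b-5p and chrX:52741697-52741718 for miR-363-3p. miR-17-5p, miR-20a-5p and miR-18a-5p come from chromosome 14, and miR-92a-3p is made in identical form on chromosome 14 and by Mir92-2 of the X-linked cluster.
miR-106a-5p: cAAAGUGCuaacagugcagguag
miR-17-5p: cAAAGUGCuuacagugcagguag
miR-20b-5p: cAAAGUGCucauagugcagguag
miR-20a-5p: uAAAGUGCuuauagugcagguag
miR-18b-5p: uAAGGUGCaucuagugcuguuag
miR-18a-5p: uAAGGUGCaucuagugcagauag
miR-363-3p: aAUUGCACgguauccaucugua
miR-92a-3p: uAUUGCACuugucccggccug

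Positions below count from 1 at the 5′ end, with the paralog's base first. miR-106a-5p differs from miR-17-5p at 1 of 23 positions (U10A), which lies outside the seed. miR-20b-5p differs from miR-20a-5p at 2 positions (U1C and U10C), and also lies 2 differences away from both miR-17-5p and miR-106a-5p. miR-18b-5p differs from miR-18a-5p at 2 positions near the 3′ end (A18U and A20U). miR-363-3p is the distinct one: it shares only the seed and scattered bases with miR-92a-3p, being identical at 10 of 21 positions aligned from the 5′ end, and its nearest mature miRNA in RefSeq, miR-367-3p, differs at 8. How the authors assigned reads that match more than 1 miRNA was not given in the sources used here, so values of miR-106a-5p, miR-20b-5p and miR-18b-5p may include reads of their paralogs, while miR-363-3p has no close copy.

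The hairpins of the 4 members are shown to place the arms, with RefSeq's mature arms in capitals; RefSeq's table gave the 3′ arm of Mir363.
Mir106a: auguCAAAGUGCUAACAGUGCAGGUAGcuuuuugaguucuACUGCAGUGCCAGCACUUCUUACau
Mir18b: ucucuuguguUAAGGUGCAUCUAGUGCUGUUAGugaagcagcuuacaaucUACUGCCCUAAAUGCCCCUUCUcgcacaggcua
Mir20b: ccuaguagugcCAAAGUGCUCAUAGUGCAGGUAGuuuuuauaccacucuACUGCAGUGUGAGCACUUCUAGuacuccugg
Mir363: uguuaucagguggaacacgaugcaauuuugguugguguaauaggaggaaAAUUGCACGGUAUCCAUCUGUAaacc
All 6 hairpins of the cluster, including the second copies of miR-19b and miR-92a, fall within 875 bases of the X chromosome, from 52741693 to 52742567 on the minus strand. The long non-coding RNA gene Kis2 is annotated on the X chromosome from 52742563 to 52744593, and its end at 52742563 overlaps the start of the Mir106a hairpin. The strand of Kis2 was not looked up here.

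**Figure D1:**
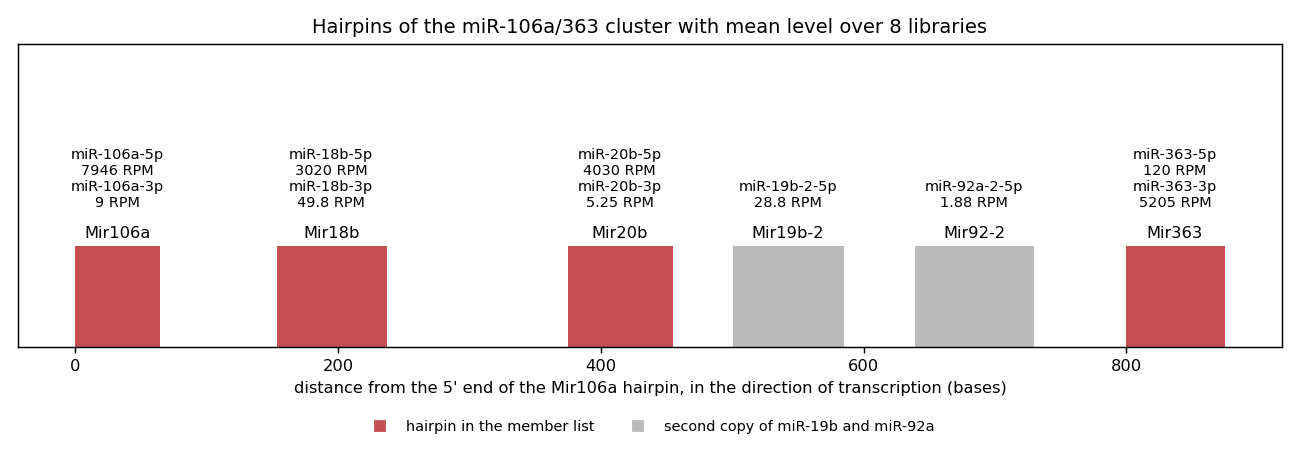
Hairpins of the cluster (boxes) by distance in bases from the 5′ end of the Mir106a hairpin, with the mean level of each arm over the 8 libraries in RPM. Mean levels of the arms in the member list ran from 5.25 RPM for miR-20b-3p to 7946 RPM for miR-106a-5p, and grey boxes are the second copies of miR-19b and miR-92a.

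Levels are the deposited values read as RPM, miRNA reads scaled to the same total in every library. The libraries rested on between 362483 and 541342 implied miRNA reads, so that 3 reads correspond to between 5.54 and 8.28 RPM. The stem cell markers of the miR-290 cluster, 5 of 5 present in every library, summed to 31.8% of reads with Dox and 35.0% without it at day 0, as the label of embryonic stem cells implies, and to 17.4% and 12.2% at day 4. Of the 7 fibroblast miRNAs chosen as markers of feeder cells, 6 were listed, and their sum at days 0, 1, 2 and 4 was 19231, 26053, 32660 and 57499 RPM with Dox and 13344, 26309, 24508 and 39579 RPM without it, most of it miR-21a-5p, which many cell types make. That sum was lowest at day 0 and highest at day 4 in both treatments, and higher with Dox at day 4. From day 0 to day 4 miR-21a-5p went from 14675 to 53151 RPM with Dox and from 8428 to 36898 RPM without it. Of the 6 markers, 2 had a positive and 4 a negative log2 difference between day 4 and day 0, with a median of -0.39. The sum thus followed miR-21a-5p and not the markers as a set. Of 6 blood miRNAs, 5 were listed, and their sum was 1134, 516, 241 and 104 RPM with Dox and 1227, 858, 306 and 81 RPM without it, lower on each later day and mostly miR-150-5p, while miR-451a and miR-144-3p stood at 0 in some libraries. The part of these marker sums, which move with day, in the cluster's differences between days was not tested. In a mixed aggregate, fewer cells of a type and less RNA per cell cannot be told apart.

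By mean level the order was miR-106a-5p, miR-363-3p, miR-20b-5p and miR-18b-5p, then miR-363-5p, miR-18b-3p, miR-106a-3p and miR-20b-3p. The ranges of the first 4 overlapped, at 7946 ± 2232, 5205 ± 3225, 4030 ± 2040 and 3020 ± 1934 RPM (SD over the 8 libraries of different days and treatments, n = 8). miR-106a-5p exceeded miR-363-3p in 7 of 8 libraries, and miR-363-3p exceeded miR-20b-5p in only 5. A gap without overlap followed: the lowest value of miR-18b-5p, 1037 RPM, was above the highest of miR-363-5p, 232 RPM. The other arms overlapped in range from one to the next. The guide arms of the cluster are 22 or 23 bases long, so no correction for length was made, although ligation in library preparation favours some sequences over others.

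The question of the time course was how the cluster behaved as the stem cells differentiated, and miR-363-3p had the lowest adjusted p at days 2 and 4 among the 8 arms. miR-363-3p shares its seed with miR-92a and miR-25. With Dox its levels at days 0, 1, 2 and 4 were 2394, 3283, 7238 and 6909 RPM. Without Dox they were 1418, 2972, 6448 and 10977 RPM. Both day 0 libraries were the lowest and every later library was higher, and days 2 and 4 did not overlap day 0 or day 1. Relative to day 0 its level was higher by 0.76, 1.89 and 2.24 on the log2 scale at days 1, 2 and 4 (SE 0.26 each; limma adjusted p = 0.0417, 9.44e-11 and 1.03e-15), all 3 against the same day 0 libraries. That SE comes from the trend over all miRNAs, and the residual SD of miR-363-3p itself was larger, at 0.41. The calls at days 2 and 4 held under all 10 alternatives, with limma adjusted p up to 0.0218 and 0.00484. The day 1 call held under only 4 of 10, with a difference down to 0.38 and limma adjusted p up to 0.465.

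miR-18b-5p, whose targets overlap those of miR-18a through the same seed, followed a similar course. Its levels over the same days were 1069, 2333, 3548 and 3094 RPM with Dox, and without Dox 1037, 1981, 4166 and 6930 RPM. The day 0 libraries were nearly equal, and day 4 without Dox was the highest library. It was higher than at day 0 by 1.03, 1.87 and 2.14 on the log2 scale (SE 0.27; adjusted p = 0.00348, 1.15e-09 and 2.93e-13 by limma). Its own residual SD was again larger than the SE, at 0.44. The calls at days 2 and 4 held under all 10 alternatives, with limma adjusted p up to 0.0218 and 0.00595. The day 1 call held under 7 of 10, with a difference down to 0.65 and limma adjusted p up to 0.162.

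miR-20b-5p carries the miR-17 seed. It stood at 2676, 2331, 5988 and 4614 RPM with Dox and at 1600, 2352, 6982 and 5700 RPM without it. Days 0 and 1 lay together and days 2 and 4 lay above them, with the highest value at day 2 in both treatments. The log2 difference from day 0 was 0.18 at day 1, which did not pass the threshold of 0.05 (SE 0.26, limma adjusted p = 0.735). At days 2 and 4 it was 1.64 and 1.31 (limma adjusted p = 4.59e-08 and 8.86e-06). The calls at days 2 and 4 held under all 10 alternatives, with limma adjusted p up to 0.0218 and 0.0445. The residual SD of miR-20b-5p itself was 0.34.

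miR-106a-5p, the most abundant arm, moved the least of the guides. It stood at 6896, 5999, 10123 and 6946 RPM with Dox and at 5774, 6205, 10965 and 10663 RPM without it. The day 2 libraries were high in both treatments, but at day 4 the Dox library was back at its day 0 level. It passed the threshold only at day 2, with a log2 difference of 0.74 (SE 0.25; limma adjusted p = 0.0222), and values of -0.05 and 0.45 at days 1 and 4 did not pass (adjusted p = 0.997 and 0.193). The day 2 call held under 6 of 10 alternatives; with median-of-ratios scaling the difference was 0.26 at day 2 (limma adjusted p = 0.561) and turned to -0.15 at day 4.

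**Figure D2:**
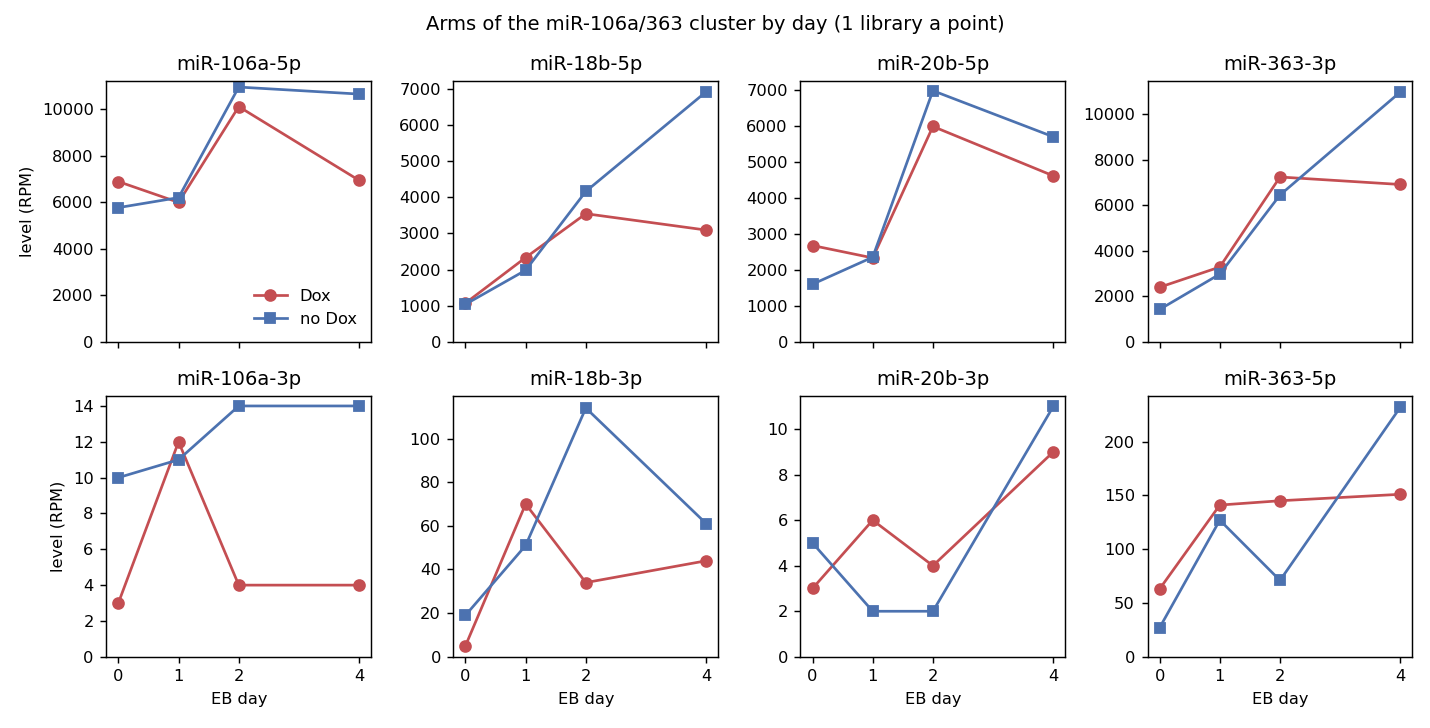
Level in RPM (y axis, separate scale per panel, from 0) of the 8 arms against EB day, 1 library a point, with Dox in red and without Dox in blue. Guide arms (top) had higher values at days 2 and 4 than at day 0 in both treatments, by the least for miR-106a-5p with Dox at day 4, at 6946 RPM and 6896 at day 0, and of the other arms (bottom) miR-106a-3p and miR-20b-3p stayed at or below 14 RPM.

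Of the other arms, miR-363-5p stood at 63, 141, 145 and 151 RPM with Dox and at 27, 127, 71 and 232 RPM without it. It was higher than at day 0 by 1.67, 1.28 and 2.15 on the log2 scale at days 1, 2 and 4 (SE 0.44; limma adjusted p = 0.00348, 0.0279 and 1.19e-05), but the day 1 call held under 8 of 10 alternatives, with adjusted p up to 0.149, and the day 2 call under only 5 of 10, with adjusted p up to 0.219. miR-18b-3p stood at 5, 70, 34 and 44 RPM with Dox and at 19, 51, 114 and 61 RPM without it, with 2 implied reads in the Dox library of day 0. Its log2 differences were 2.47, 2.53 and 2.27 (SE 0.55; adjusted p = 3.72e-04, 1.12e-04 and 3.27e-04), and both day 0 libraries lay below every later one. Its calls at days 1 and 2 each held under 9 of 10 alternatives, with limma adjusted p up to 0.112 and 0.0526. The residual SDs of miR-363-5p and miR-18b-3p themselves were larger than these SEs, at 0.59 and 0.75. miR-106a-3p, at 3 to 14 RPM, and miR-20b-3p, at 2 to 11 RPM, rested on at most 6 and 5 implied reads, and neither passed on any day.

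By count, 4 of the 8 arms were higher at day 1, 6 at day 2 and 5 at day 4 than at day 0, and 0 were lower by limma in any of these comparisons. Among all 839 miRNAs tested, 8.1%, 17.3% and 25.7% passed in either direction: 7.03%, 15.3% and 21.9% were higher, and 1.07%, 2.03% and 3.81% were lower. The median log2 difference of the 8 arms was 0.84, 1.46 and 1.72 at days 1, 2 and 4, against 0.37, 0.48 and 0.56 for all miRNAs tested. Relative to those medians of all miRNAs, miR-363-3p stood 0.40, 1.41 and 1.68 higher, miR-18b-5p 0.66, 1.39 and 1.57 higher, whereas the same values for miR-106a-5p were -0.41, 0.26 and -0.11. With median-of-ratios scaling 2 arms were higher at day 1, miR-18b-3p and miR-363-5p, and without limma's robust option 0 were called at day 1. Without that option 4 arms had an unadjusted limma p under 0.05, as had 20% of all miRNAs in the fit with it. Without the day 2 pair of libraries 1 arm, miR-18b-3p, was called at day 1. At day 2, 3 arms were called without the robust option, while at day 4 the same 5 arms passed in all 10 alternatives. The share of all miRNAs called under each alternative is not given here, so these counts describe the arms only.

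The paralog clusters were set beside these values. Of the 10 arms made only by the miR-17 to miR-92a cluster, 0 passed at days 1, 2 or 4 by limma, with medians of -0.11, 0.51 and 0.15. Of the 6 arms of the miR-106b to miR-25 cluster 1 passed, miR-106b-5p at day 2, higher by 0.89 (SE 0.32; adjusted p = 0.0338), and the medians were 0.40, 0.34 and -0.26. At day 4 the log2 differences from day 0 were 0.37 for miR-18a-5p, -0.08 for miR-20a-5p, 0.29 for miR-17-5p, -0.53 for miR-93-5p and 0.16 for miR-106b-5p, none of which passed by limma. Relative to the median of all miRNAs at day 4 these values were -0.19, -0.64, -0.27, -1.10 and -0.40. They average both treatments, which differed. In the same order the ratio of day 4 to day 0 was 0.925, 0.608, 0.920, 0.560 and 0.966 with Dox. Without Dox it was 1.81, 1.47, 1.62, 0.853 and 1.29, with 1 library behind each value. The arms that both clusters make in identical form also did not pass on any day by limma, with log2 differences of 0.19 for miR-92a-3p and -0.22 for miR-19b-3p at day 4. Their ratios of day 4 to day 0 were 0.841 and 0.936 with Dox and 1.55 and 0.793 without it. The passenger arms of the X-linked second copies were looked at after their values were seen and are given with no test. miR-19b-2-5p stood at 5, 27, 45 and 30 RPM with Dox and at 5, 18, 81 and 19 RPM without it. miR-92a-2-5p stood at 0, 2, 0 and 2 RPM with Dox and at 2, 9, 0 and 0 RPM without it, at or near the level of single reads. Both day 0 libraries were the lowest for miR-19b-2-5p, and miR-92a-2-5p showed no such order.

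**Figure D3:**
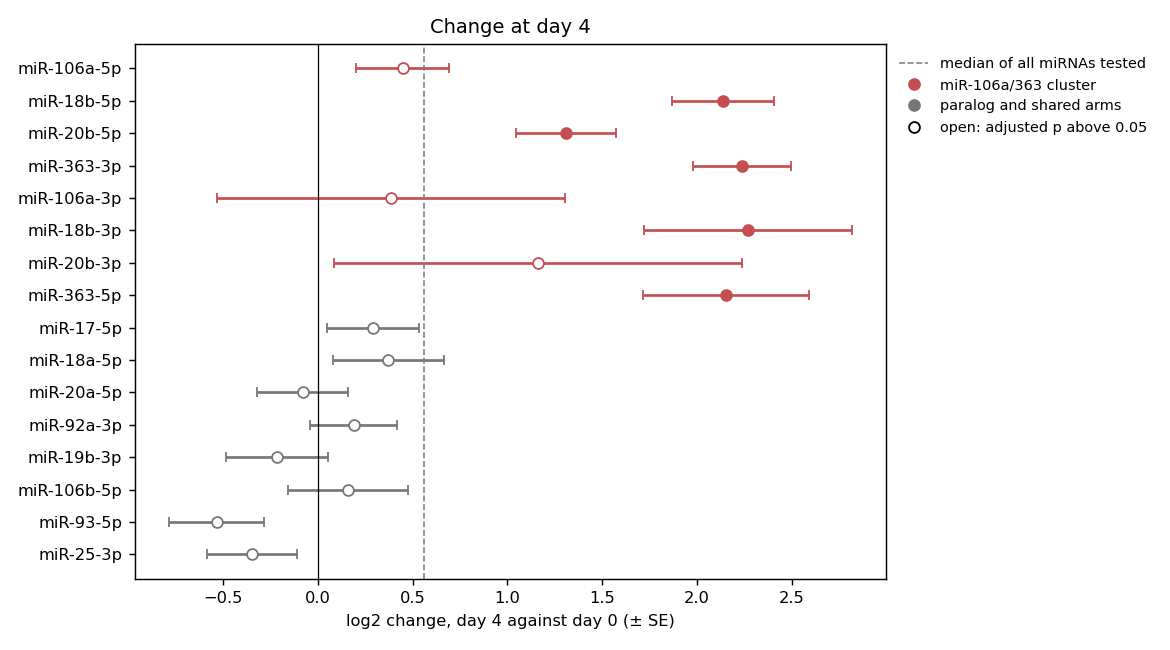
Difference between day 4 and day 0 on the log2(RPM + 1) scale (x axis, with SE from limma) for the 8 arms of the cluster in red and for paralog and shared arms in grey. Filled points passed an adjusted p of 0.05; 5 arms of the cluster did, between 1.31 and 2.27, and the paralog and shared arms drawn did not, while the dashed line is the median of all miRNAs, 0.56.

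Whether a member moved apart from its paralog was asked of the ratio of both in the same library, which does not depend on scaling between libraries. The ratio of miR-18b-5p to miR-18a-5p was 1.15, 2.95, 2.95 and 3.61 with Dox and 1.12, 2.24, 2.61 and 4.12 without it, at days 0, 1, 2 and 4. The ratio of miR-20b-5p to miR-20a-5p was 0.214, 0.284, 0.575 and 0.607 with Dox and 0.188, 0.217, 0.468 and 0.455 without it. That of miR-363-3p to miR-92a-3p was 0.114, 0.174, 0.470 and 0.391 with Dox and 0.0869, 0.131, 0.320 and 0.436 without it. Because Mir92-2 of the X-linked cluster also makes miR-92a-3p, this last ratio does not set the cluster against its paralog alone. All 3 ratios were lowest at day 0 in both treatments.

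The ratio of miR-106a-5p to miR-17-5p lay between 0.770 and 0.945 in all 8 libraries, with 0.776, 0.867, 0.944 and 0.850 with Dox and 0.770, 0.825, 0.945 and 0.875 without it. The trend of each log2 ratio over days was tested by permuting days within treatment, an exact two-sided test with 576 arrangements that was chosen after the values were seen. The ratio rose by 0.39 per day on the log2 scale for miR-18b-5p over miR-18a-5p (exact p = 0.0243, 0.0324 adjusted over 4 pairs), by 0.37 for miR-20b-5p over miR-20a-5p (exact p = 0.0104, 0.0208 adjusted) and by 0.53 for miR-363-3p over miR-92a-3p (exact p = 0.0104, 0.0208 adjusted). For miR-106a-5p over miR-17-5p the slope was 0.04 and did not pass (exact p = 0.217, also after adjustment). Whether reads of miR-17-5p counted as miR-106a-5p, which differs at 1 position, contribute to that nearly constant ratio was not tested.

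**Figure D4:**
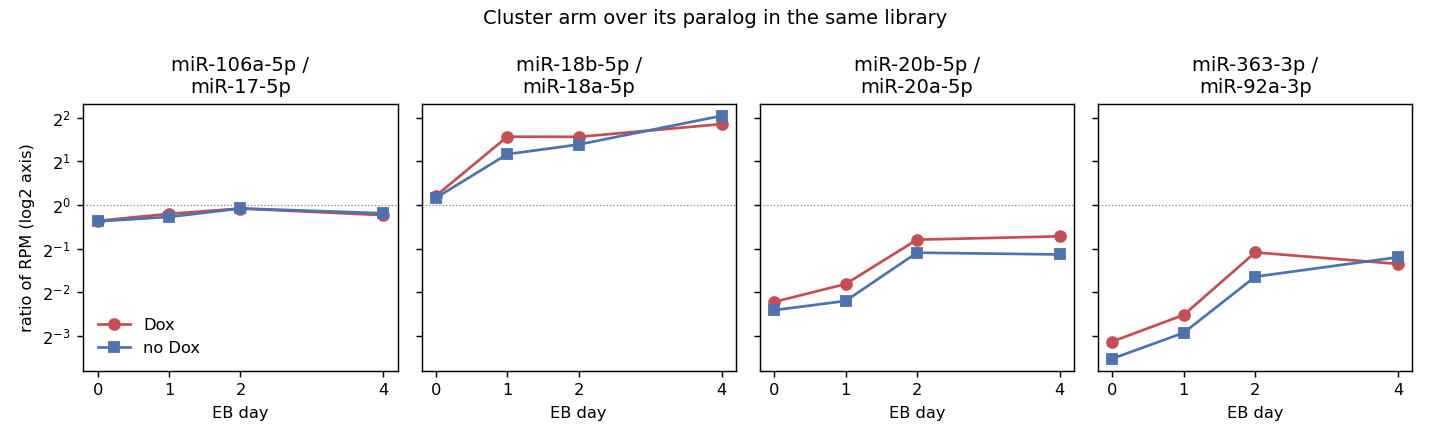
Ratio of RPM of a cluster arm to its paralog in the same library (y axis, log2 scale) against EB day, with Dox in red and without Dox in blue, 1 library a point. The ratio for miR-18b-5p ran from 1.12 to 4.12, that for miR-20b-5p from 0.188 to 0.607 and that for miR-363-3p from 0.0869 to 0.470, while that for miR-106a-5p stayed between 0.770 and 0.945.

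Within seed families the part of the members was larger at day 4 than at day 0. It is given as shares of implied reads with exact Clopper-Pearson 95% intervals that cover counting error only. miR-18b-5p made up 78.3% (76.5 to 80.0) of the 2 miRNAs with its seed at day 4 with Dox and 80.5% (79.0 to 81.8) without it, against 53.6% (49.9 to 57.2) and 52.8% (49.3 to 56.3) at day 0. miR-363-3p made up 18.8% (18.3 to 19.4) with Dox and 21.9% (21.3 to 22.5) without it of the 6 listed miRNAs with its seed at day 4, against 5.81% (5.44 to 6.20) and 4.51% (4.16 to 4.88) at day 0. Those 6 include miR-92a-3p, which Mir92-2 of the same cluster also makes, so this is not the share of the whole cluster. miR-106a-5p and miR-20b-5p together made up 37.0% (36.3 to 37.7) with Dox and 34.8% (34.1 to 35.5) without it of the 6 listed miRNAs with the miR-17 seed at day 4, against 25.5% (24.8 to 26.2) and 24.5% (23.7 to 25.2) at day 0. Of that family, miR-20b-5p alone made up 14.8% with Dox and 12.1% without it at day 4, against 7.13% and 5.31% at day 0, and miR-106a-5p 22.2% and 22.7% at day 4, against 18.4% and 19.2%. For each of these shares the day 4 and day 0 intervals did not overlap. The 8 arms together took 2.18% of miRNA reads at day 4 with Dox and 3.46% without it, against 1.31% and 0.989% at day 0.

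The arms of a hairpin come from 1 precursor, and the share of the rarer arm was compared within each library. miR-363-5p was between 1.96% and 4.12% of the reads of its hairpin with Dox and between 1.09% and 4.09% without it, and both highest values were at day 1. There the intervals, 3.24 to 5.15 with Dox and 3.11 to 5.27 without it, lay above those of day 2, 1.52 to 2.48 with Dox and 0.738 to 1.55 without it. They overlapped those of day 0, 1.63 to 3.81 with Dox and 0.925 to 3.28 without it. miR-18b-3p was between 0.509% and 2.89% of its hairpin with Dox and between 0.868% and 2.66% without it. The 3′ arms of miR-106a and miR-20b were at most 0.193% and 0.248% with Dox and 0.179% and 0.302% without it. miR-106a-5p, miR-18b-5p, miR-20b-5p and miR-363-3p were thus the dominant arms of their hairpins in every library.

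The cluster was next compared between Dox and no Dox, with all 4 days in 1 model, to ask what induction of the DGCR8 transgene did to it. None of the 8 arms passed by limma, and limma-voom on the implied reads also called 0. Among all miRNAs 1.91% passed, 1.31% higher and 0.596% lower with Dox. An unadjusted limma p under 0.05 was found for 1 arm, miR-18b-3p, and for 10.5% of all miRNAs tested. The log2 differences were -0.13 for miR-106a-5p (SE 0.17), -0.28 for miR-18b-5p (SE 0.19), 0.05 for miR-20b-5p (SE 0.19) and 0.10 for miR-363-3p (SE 0.18), with limma adjusted p of 0.670 or above. For the other arms they were -0.87 for miR-18b-3p (SE 0.39; adjusted p = 0.360), 0.44 for miR-363-5p (SE 0.31), -1.13 for miR-106a-3p (SE 0.65) and 0.28 for miR-20b-3p (SE 0.76). The median of the 8 was -0.04, against 0.03 for all miRNAs tested, -0.36 for the 10 miR-17 to miR-92a arms and -0.27 for the 6 miR-106b to miR-25 arms, of which 0 passed as well. The sign for the guides depended on which days were included. Without the day 4 pair of libraries the differences were 0.03 for miR-106a-5p, 0.02 for miR-18b-5p, 0.17 for miR-20b-5p and 0.36 for miR-363-3p, and without the day 0 pair they were -0.26, -0.39, -0.18 and -0.12 in the same order.

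By single day, guides tended to be higher with Dox at day 0 and lower with Dox at day 4. At day 0 the Dox to no-Dox ratio was 1.19 for miR-106a-5p (95% counting interval 1.13 to 1.26), 1.67 for miR-20b-5p (1.51 to 1.85) and 1.69 for miR-363-3p (1.52 to 1.88), while that of miR-18b-5p, 1.03 (0.896 to 1.18), included 1. At day 4 all 4 guides were lower with Dox, with ratios of 0.651 (0.623 to 0.681) for miR-106a-5p, 0.446 (0.419 to 0.475) for miR-18b-5p, 0.810 (0.763 to 0.859) for miR-20b-5p and 0.629 (0.602 to 0.658) for miR-363-3p. The ratios of the guides ran from 0.967 to 1.18 at day 1 and from 0.852 to 1.12 at day 2.

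Set against its own day 0 library, each guide gained less with Dox than without it by day 4, with 1 library behind each value. The ratio of day 4 to day 0 for miR-363-3p was 2.89 (2.68 to 3.11) with Dox and 7.74 (7.10 to 8.46) without it. For miR-18b-5p it was 2.90 (2.59 to 3.24) with Dox and 6.68 (6.03 to 7.42) without it. For miR-20b-5p it was 1.72 (1.60 to 1.86) with Dox and 3.56 (3.26 to 3.89) without it, and for miR-106a-5p 1.01 (0.957 to 1.06) with Dox and 1.85 (1.75 to 1.94) without it. The intervals cover counting error only, and both the day 0 and the day 4 libraries enter each difference. miR-17-5p, miR-18a-5p, miR-20a-5p and the shared arm miR-92a-3p also had lower ratios with Dox. In that order these were 0.920, 0.925, 0.608 and 0.841 with Dox and 1.62, 1.81, 1.47 and 1.55 without it. The shared arm miR-19b-3p went the other way, at 0.936 with Dox and 0.793 without it. The share of all miRNAs with such a difference was not computed.

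Counted over all 8 arms, the interval lay above 1 for 4, 2, 2 and 0 arms at days 0, 1, 2 and 4, where 10.7%, 12.4%, 10.5% and 14.4% of the 839 miRNAs did. It lay below 1 for 0, 0, 4 and 5 arms, where 7.87%, 8.82%, 15.3% and 18.1% of all did. Intervals are narrow for abundant miRNAs, so abundant arms leave 1 more readily than the rest, and they say nothing about the spread between cultures.

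**Figure D5:**
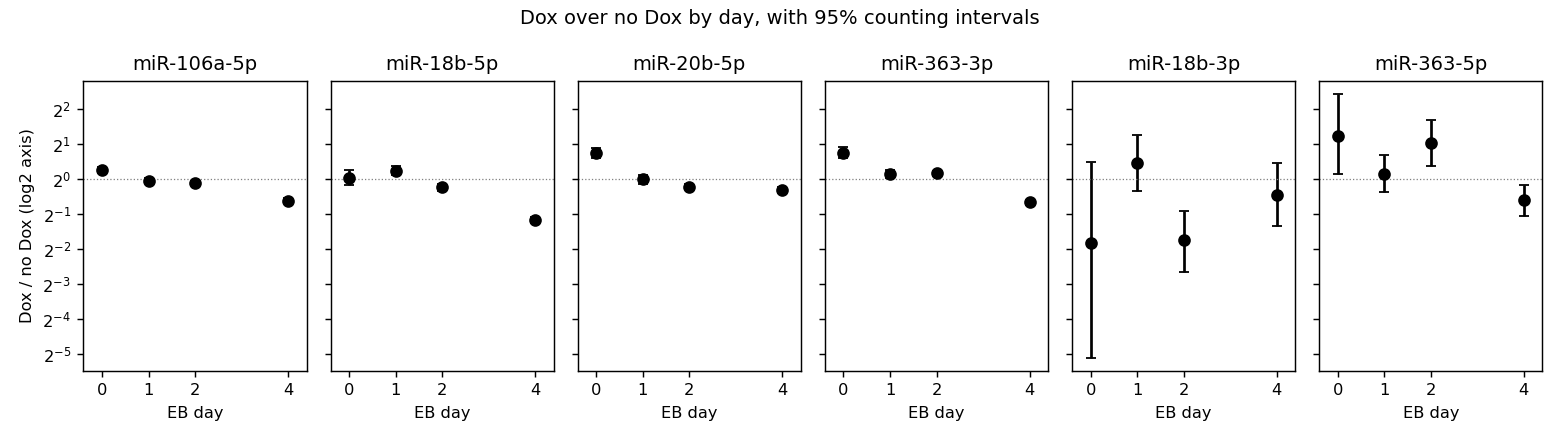
Ratio of the Dox to the no-Dox library of the same day (y axis, log2 scale) against EB day for the 6 arms averaging 10 RPM or more, with 95% counting intervals. The guides were at or above 1.03 at day 0 and between 0.446 and 0.810 at day 4; the intervals of miR-18b-3p are wide because it rested on 2 to 48 reads.

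The change of the Dox ratio with day was tested as a slope per day. The slopes were -0.21 (SE 0.09) for miR-106a-5p, -0.33 (SE 0.11) for miR-18b-5p, -0.23 (SE 0.11) for miR-20b-5p and -0.33 (SE 0.10) for miR-363-3p. None of the 8 arms passed by limma, with 0.0923 as the lowest adjusted p, that of miR-363-3p, and 0.119 for miR-18b-5p. The 4 guides had an unadjusted limma p under 0.05, as had 11.3% of all miRNAs tested. By limma-voom 0 arms passed. After adjustment 0.954% of all miRNAs passed, 0.238% with a positive and 0.715% with a negative slope. The median slope of the 8 arms was -0.22, against -0.04 for all miRNAs tested, -0.14 for the miR-17 to miR-92a arms and -0.10 for the miR-106b to miR-25 arms. The paralogs of the guides had slopes nearer to theirs than these medians. They were -0.19 for miR-17-5p, -0.25 for miR-18a-5p, -0.28 for miR-20a-5p and -0.19 for miR-92a-3p (limma adjusted p of 0.103 or above).

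At day 4 both treatments also differed in the epiblast miRNAs of the miR-302 cluster, whose 4 markers summed to 2044 RPM with Dox and 29011 RPM without it, against 290 and 335 RPM at day 0, where miR-367-3p was at 0 with Dox. The stem cell markers summed to 174054 RPM with Dox and 121819 RPM without it at day 4, and the fibroblast markers to 57499 RPM with Dox and 39579 RPM without it. Their part in the lower values of the cluster with Dox at day 4 was not tested.

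The paralogs also had lower values with Dox at day 4, with 8176 RPM with Dox and 12183 RPM without it for miR-17-5p, 857 and 1683 RPM for miR-18a-5p, 7605 and 12533 RPM for miR-20a-5p, and 17654 and 25204 RPM for miR-92a-3p in the same order. The ratio of miR-106a-5p to miR-17-5p differed between Dox and no Dox by a mean of 0.01 on the log2 scale (SD 0.05 over 4 days). That of miR-20b-5p to miR-20a-5p was higher with Dox on 4 of 4 days, by 0.32 on the log2 scale (SD 0.10). An exact two-sided sign-flip test over 4 days gave p = 0.125, the smallest it can give, and 0.5 adjusted over 4 pairs. The ratio of miR-18b-5p to miR-18a-5p and that of miR-363-3p to miR-92a-3p were higher with Dox on 3 of 4 days, by 0.11 (SD 0.25) and 0.30 (SD 0.31), and lower at day 4.

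The miRNAs whose pattern was most like that of the cluster were named by Pearson's r on log2(RPM + 1) over the 8 libraries with the mean of the 6 arms that averaged at least 10 RPM. Out of 493 other miRNAs at that level, the closest was miR-652-3p, also X-linked, with r = 0.99. It stood at 227, 464, 602 and 519 RPM with Dox and at 199, 342, 688 and 731 RPM without it. Next came miR-667-3p (r = 0.98), miR-1193-3p (r = 0.97), miR-323-3p (r = 0.96) and miR-431-3p (r = 0.96), all of chromosome 12. At day 0 miR-667-3p stood at 8 RPM with Dox and 5 RPM without it, below the value of 3 reads in those libraries. The mean of the 6 arms weighs miR-18b-3p, with 2 implied reads in the Dox library of day 0, as much as each guide. The r values describe 8 libraries that share their days, and many miRNAs were higher at later days. Among the members, miR-18b-5p and miR-363-3p correlated at 0.95 and miR-20b-5p and miR-363-3p at 0.92 over the 8 libraries. miR-106a-5p correlated at 0.97 with miR-17-5p, its near-identical copy on chromosome 14, and at 0.80, 0.93 and 0.82 with its own cluster mates miR-18b-5p, miR-20b-5p and miR-363-3p.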

How the data were processed

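Total RNA went into small RNA libraries by a NEBNext kit, per the labels' protocols. The deposited values are scores, whole numbers per mature miRNA with library sums from 999965 to 1000047, read here as RPM that the authors rounded. Per the submitters' processing notes Bowtie and mm10 were used; read assignment is not stated. The last row, named as a sum, holds no values and was left out. Implied reads are the smallest total of which every value is a rounded multiple; up to 207 totals did so in a library, and a larger one would narrow the intervals.

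The 839 miRNAs with at least 1 RPM in at least 2 libraries were tested on log2(value + 1) with limma 3.58.1 in R 4.3.3 (trend, robust prior, Benjamini-Hochberg over the 839), with treatment and day as factors. That scale understates changes of low miRNAs. The prior degrees of freedom were infinite for all except 39 miRNAs in this fit, and for all except 3 in the separate fit of the Dox slope over days, so most SEs come from the trend rather than a miRNA's own spread. Separate cultures are not stated. With 1 library per treatment and day, the residual measures how the Dox difference varies between days. In the slope fit it measures the departure of that difference from a straight line. The p-values thus rest on that spread, which may be technical, and not on a spread between replicates. Intervals by day are exact conditional binomial at 95% for counting error alone; reads that PCR copied from 1 molecule are not independent. The code (R and Python 3.11.15) was tested on simulated data.

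Members, lists and tests were chosen with earlier results of these data known. All 8 arms are named, with matching paralog arms and the 5 miRNAs most like the cluster. A planned test of a share summed over members is not given.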

Additional observations from a re-analysis of the deposited data

How the results depend on the processing

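Under all alternatives run, the number of the cluster's arms past the threshold stayed within 1.5 times for day 4 against day 0 and was 0 for Dox and for its slope over days. At day 1, where 4 arms passed, 2 passed with median-of-ratios scaling, 1 without the day 2 pair of libraries and 0 in limma without the robust option. Without that option 4 had an unadjusted limma p under 0.05, as had 20% of all miRNAs in the fit with it. At day 2, where 6 passed, 3 passed without the robust option, miR-18b-5p, miR-20b-5p and miR-363-3p. These counts are given without the share of all miRNAs called under the same alternative. The median of all miRNAs at day 1 was 0.02 with median-of-ratios scaling. The cause of the lower counts was not tested. The day 4 values of miR-18b-5p, miR-20b-5p and miR-363-3p ran from 1.54 to 2.14, 0.71 to 1.31 and 1.64 to 2.24 over 10 alternatives and passed in each. The Dox minus no-Dox share of miR-106a-5p, miR-20b-5p and miR-18b-5p among these and their paralogs averaged 1.65 percentage points (SD 2.58, n = 4 days), and 4.31 for miR-20b-5p with miR-20a-5p alone. Day trends of the paralog ratios, an alternative chosen after seeing the data, kept their sign on ranked days and in each treatment alone. Arms near 3 reads cannot show changes at this depth.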
